A study of Homo sapiens with 2 samples.

Results

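Genes of the mitochondrial ribosome were compared between 2 libraries of HEK293T, a human embryonic kidney cell line: 77 of the 28117 genes named in the tables. They were chosen as every protein-coding gene with the symbol MRPL or MRPS followed by a number, without pseudogenes, which gave 49 MRPL and 28 MRPS genes. Both libraries came from poly-A selected RNA of cells reverse transfected with a synthetic RNA at 500 nM and collected at 120 h. The control library received a non-targeting RNA called GL2, and the other received a mimetic of tRF-3004b, a fragment of a transfer RNA. With 1 library per group there is no spread between replicates, so no p-value is given and the values compare these 2 libraries, not the conditions. In bulk RNA, fewer cells of a type and less RNA per cell cannot be told apart. An established line such as HEK293T stands for 1 cell background only.

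The mitochondrial ribosome translates the few mRNAs encoded in mitochondrial DNA, all of them for subunits of the oxidative phosphorylation complexes. Its rRNAs are transcribed inside the organelle, whereas all its proteins are encoded in the nucleus, made in the cytosol and imported. Many of these proteins have a counterpart in bacterial ribosomes, and the others exist only in mitochondria. By subunit, 51 members belong to the large subunit, in which the peptide bond is formed, and 26 to the small subunit, in which the mRNA is decoded. MRPS30 and MRPS18A carry a small subunit symbol but are proteins of the large subunit, and are counted there.

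The transfected mimetic is shown first because its bases 2 to 8, in capitals, are the seed by which a small RNA of this kind pairs with mRNA when loaded in an Argonaute protein. Its sequence is given 5′ to 3′.
tRF-3004b mimetic: uCAAAUCUcgguggaaccucca

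The heptamer complementary to that seed, AGATTTG, was found in the 3′ UTR of 11 of 76 members searched (14.5%), against 11.7% of 18968 genes. In the coding sequence it was found in 5 members (6.58%), against 10.7% of genes. No 3′ UTR of MRPL18 was searched. The 7 sites below are those of the member with most sites (MRPS16), of a member in which the share of the site-carrying transcript differed between libraries (MRPL35), and of the highest (MRPL50) and the lowest (MRPS25) of the members with a site. Each is shown on the mRNA strand with 11 bases on either side, from GENCODE release 29 transcripts on GRCh38, with the heptamer in capitals.
MRPS16 site 1: ttaattttgttAGATTTGgagttcaataa
MRPS16 site 2: ggcccagggagAGATTTGttcttgtgtga
MRPS16 site 3: tatacaaaggtAGATTTGttatgaaaatt
MRPL35 site 1: cagactttgccAGATTTGgttagggaaac
MRPL35 site 2: agccctaatttAGATTTGaggaaactgaa
MRPL50 site: agaattaaagtAGATTTGttaaagtgtat
MRPS25 site: ttaaattgagcAGATTTGgatcttttaca

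The MRPS16 heptamers lie in its 3′ UTR on the minus strand at chr10:73250766-73250772, chr10:73250690-73250696 and chr10:73249760-73249766. Those of MRPL35 lie on the plus strand at chr2:86210840-86210846 and chr2:86213034-86213040, that of MRPL50 on the minus strand at chr9:101389975-101389981, and that of MRPS25 on the minus strand at chr3:15050848-15050854. The other members with a site in the 3′ UTR were MRPL42, MRPL9, MRPS18C, MRPS2, MRPS23, MRPS30 and MRPS33. A match is a stretch of letters and not a measured binding site.

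Promoter letters are shown for MRPL27, the member with the highest ratio among those averaging 10 CPM or more, and for MRPL3, the most abundant one in TPM. Sequences are RefSeq's, from 250 bases before to 50 after the start, on GRCh38.p14, and 69 of the 77 members had an entry. Both strands were searched for AAGATGGC (YY1), ACTTCCGG (the ETS family, which includes GABPA) and the 10-base consensus of NRF1, 3 motifs known from promoters of nuclear genes for mitochondrial proteins. Capitals mark the match, which for these 2 genes lies upstream of the start and reads as the complement of the motif.
MRPL27 (ETS): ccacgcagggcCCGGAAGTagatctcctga
MRPL3 (ETS): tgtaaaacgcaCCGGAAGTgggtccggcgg

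These windows lie at chr17:50373218-50373247 on the minus strand for MRPL27 and chr3:131502985-131503014 on the minus strand for MRPL3. The YY1 letters were found in 20 of 69 member promoters (28.99%), against 3.96% of 15355 promoters of protein-coding genes. In 15 members (21.7%) they lay after the start site, against 2.55% of all promoters. The ETS letters were found in 11 members (15.9%, against 6.34%) and the NRF1 letters in 8 (11.6%, against 8.75%). At least 1 of the 3 motifs was present in 32 member promoters (46.4%) and in 17.2% of all.

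Depth was 19609933 estimated counts for the control and 1809193 for tRF-3004b, a 10.8-fold difference. Members had 47 to 6418 counts (median 896) in the control library and 18 to 982 (median 137) in the tRF-3004b library, so the shallower library sets the precision. All 77 passed the filter of 1 CPM (the count scaled for library size) averaged over both libraries, and the lowest control CPM was 2.36, so the filter selected none by its level in 1 library. The 7 marker genes of HEK293 cells, such as VIM and KRT18, were all counted in both libraries, and 4 of the 7 were higher under tRF-3004b. Their summed CPM, most of it VIM (1447 of 1576 in the control), had a log2 ratio of -0.55 (tRF-3004b over control). Markers of other cells summed to more CPM in the tRF-3004b library: 117 against 36.3 for 8 fibroblast genes, 38.8 against 10.7 for 8 epithelial genes and 52.4 against 4.81 for 8 blood genes. Among these markers KRT5 and UPK3A had 0 counts in both libraries and HBA1 had 15 and 0. Of the 8 fibroblast genes only FBLN1 was lower (23.7 and 20.8 CPM), and it held most of their control sum. Whether RNA of other cells was present, and the part of it and of depth in the members' values, was not tested.

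Most mitochondrial ribosomal protein genes had more mRNA, relative to the library, in the tRF-3004b library. The log2 ratio of the 2 libraries, with 0.5 counts added, was above 0 for 70 of 77 members, against 44.5% of the 13750 genes that passed the same filter. At least 2-fold higher were 25 members (32.5%), against a background of 12.3%, and at least 2-fold lower were 0, against 14.3%. This background reaches down to 1 CPM, whereas 76 of the 77 members averaged 10 CPM or more. Among the 8711 genes of that level, the 2-fold threshold called 534 (6.13%) higher and 749 lower. The exact 95% counting interval of the ratio lay above 0 for 64 members (background 23.3%), held 0 for 12 and lay below 0 for 1, MRPS27 (background 28.6%). In the set of 8711 genes, the interval lay above 0 for 2335 and below 0 for 3194. For 13 members the whole interval lay beyond 2-fold higher (background 4.48%). The members' median log2 ratio was 0.79, with quartiles of 0.52 and 1.12, and the median of all genes was -0.11. Around the 2-fold threshold, MRPL41 and MRPS22 stood just inside at 1.01 and 1.00, and MRPL52 and MRPL32 just outside at 0.99 and 0.97.

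**Figure D1:**
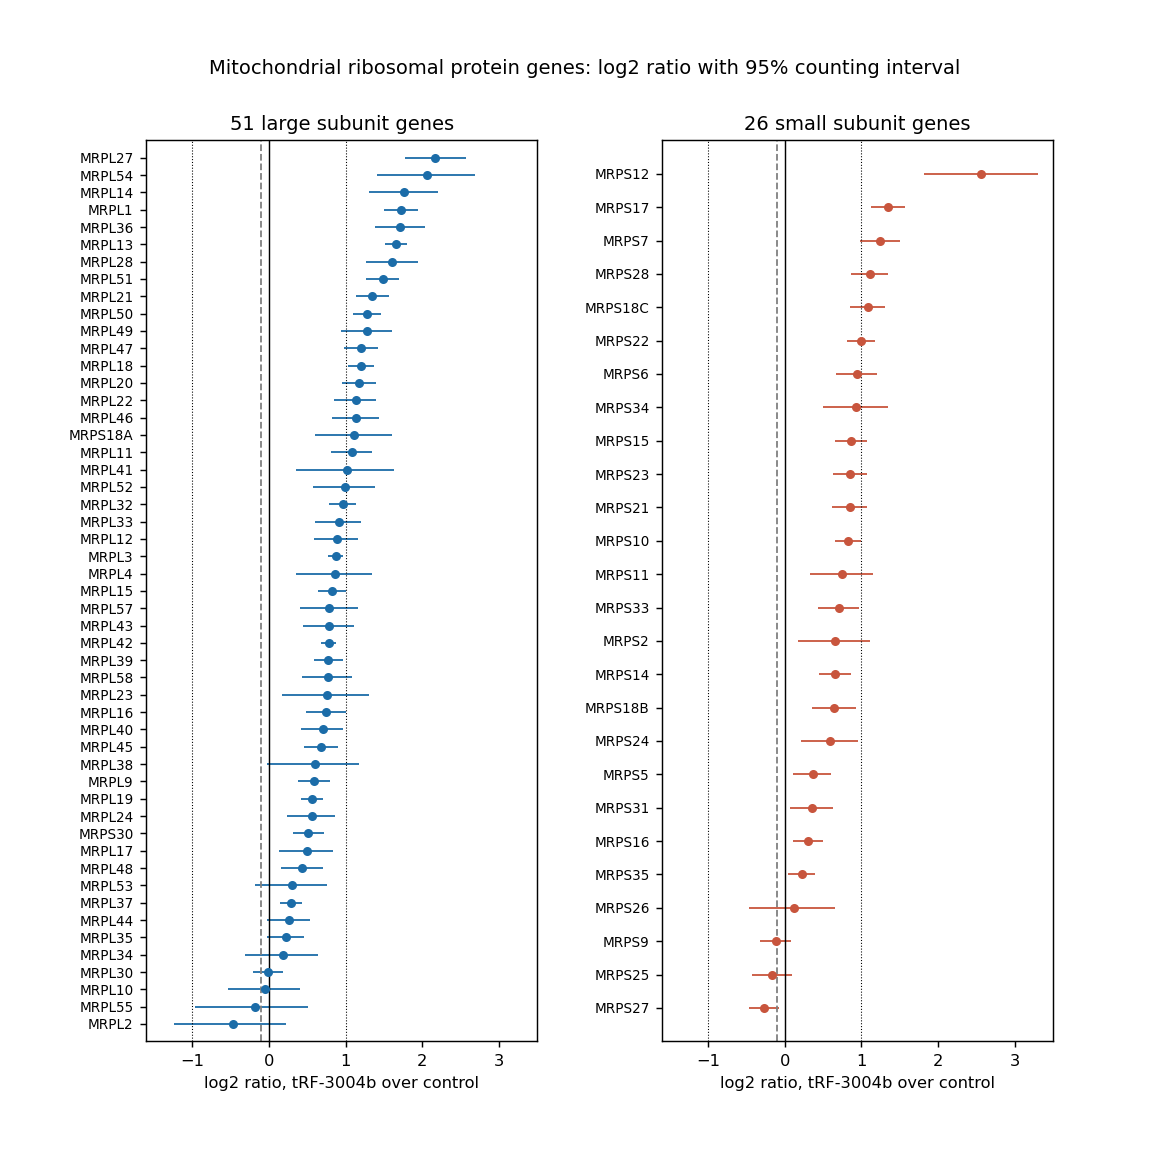
Log2 ratio of scaled counts, tRF-3004b over control library (x axis), for each of the 77 genes (y axis), with the exact 95% counting interval as a bar, the large subunit on the left and the small subunit on the right. The dashed line is the median of all genes (-0.11) and dotted lines mark 2-fold; 64 intervals lie above 0 and only that of MRPS27 below.

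Summed over all members, the control library gave 89756 counts (4501 CPM) against 13448 (7570 CPM) under tRF-3004b, a log2 ratio of 0.75 (interval 0.72 to 0.78). Counts of the 49 MRPL genes went from 2801 to 5039 CPM in sum, a log2 ratio of 0.85 (0.81 to 0.88). Those of the 28 MRPS genes went from 1700 to 2532 CPM, a log2 ratio of 0.57 (0.53 to 0.62). The sums of the MRPL and MRPS genes thus differed by more than counting error, but the distributions of single genes overlapped widely, with medians of 0.83 and 0.73. Members did not share 1 common ratio within counting error: 33 intervals held the members' own median, 24 lay above it and 20 below.

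In TPM, which divides by effective length, members ranged from 6.12 to 386 in the control library (median 81.2) and from 16.4 to 557 in the tRF-3004b library (median 106). Of the 10 members with the highest TPM in each library, 8 were in common, and Spearman's rho of the TPM values was 0.90 over the 77 genes, which share both libraries, against 0.93 over all genes averaging 10 CPM or more. In TPM, 63 members were higher in the tRF-3004b library and 11 were at least 2-fold higher. With 1 added to each TPM, 81.8% of members were higher and 14.3% at least 2-fold higher, against 30.5% and 4.95% of 13750 genes. The median TPM ratio was 1.40 for members and 0.733 for the 8711 genes averaging 10 CPM or more.

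MRPL3, a large subunit core protein (chromosome 3, 131462212 to 131502971, GRCh38), had the highest TPM in both libraries, 386 and 557. It had 5451 counts (273 CPM) in the control and 888 (500 CPM) under tRF-3004b, giving a log2 ratio of 0.87 (0.77 to 0.97). MRPL37, a mitochondria-specific protein of the large subunit, was second in the control library and did not follow: 314 and 306 TPM, with 3880 counts (195 CPM) and 422 counts (238 CPM), a log2 ratio of 0.29 (0.14 to 0.43). MRPL32, which is processed by a mitochondrial inner membrane protease before it joins the ribosome, had 277 and 431 TPM, with 1808 counts (90.7 CPM) and 315 counts (177 CPM), a log2 ratio of 0.97 (0.79 to 1.14). MRPL18, a protein of the central protuberance, had 244 and 441 TPM, with 1688 counts (84.6 CPM) and 346 counts (195 CPM), a log2 ratio of 1.20 (1.03 to 1.37). MRPS9, a small subunit protein with a bacterial counterpart, was the fifth in the control library and lower in the other, at 231 and 169 TPM. Of these 5, MRPL3, MRPL32 and MRPL18 were higher in both units, MRPL37 differed in direction between units and MRPS9 was lower in both.

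**Figure D2:**
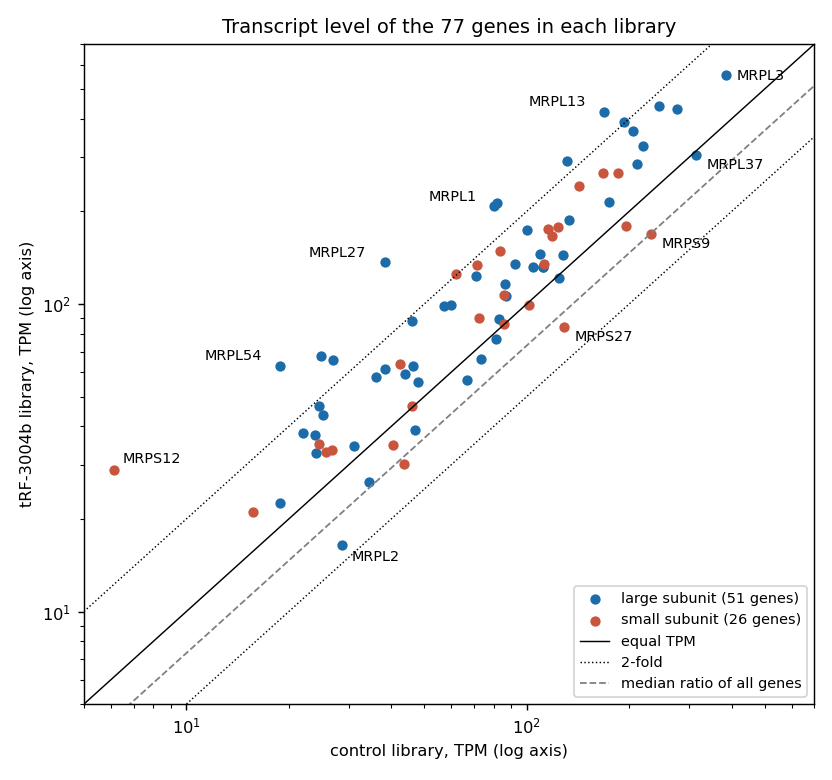
TPM of each gene in the control library (x axis, log) and the tRF-3004b library (y axis, log), with 1 point per gene. Points above the solid line of equal TPM are higher in the tRF-3004b library (63 of 77, against 30.5% of 13750 genes). The dashed line marks the median ratio of all genes averaging 10 CPM or more (0.733).

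The highest ratios were those of MRPS12 and a group of large subunit proteins. MRPS12 (chromosome 19, 38930944 to 38933168), the homologue of the bacterial decoding centre protein S12, had 47 counts (2.36 CPM) in the control and 25 counts (14.1 CPM) under tRF-3004b, giving a log2 ratio of 2.55 (1.82 to 3.31). It had the lowest control TPM of all members, 6.12, and 28.9 in the other library. MRPL27 (chromosome 17, 50367867 to 50373184) had 189 counts (9.48 CPM) and 76 counts (42.8 CPM), a log2 ratio of 2.17 (1.77 to 2.57), or 4.50-fold. MRPL54, a mitochondria-specific protein (chromosome 19, 3762682 to 3767565), had 80 counts (4.01 CPM) and 30 counts (16.9 CPM), a log2 ratio of 2.06 (1.42 to 2.70). All 3 were low in the control library, and their intervals did not reach 1.

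MRPL14 lies at the face that joins the subunits and binds the assembly factor MALSU1 (chromosome 6, 44113451 to 44127452). It had 181 counts (9.08 CPM) in the control and 55 counts (30.96 CPM) under tRF-3004b, giving a log2 ratio of 1.77 (1.31 to 2.21). MRPL1 forms the mobile stalk beside the tRNA exit site (chromosome 4, 77862830 to 77952785). It had 746 counts (37.4 CPM) and 219 counts (123 CPM), a log2 ratio of 1.72 (1.50 to 1.94). MRPL36, one of the smallest subunits (chromosome 5, 1798385 to 1801434), had 348 counts (17.5 CPM) and 102 counts (57.4 CPM), a log2 ratio of 1.72 (1.39 to 2.04). MRPL36 shares 10.5% of its 31-base words, matched on either strand of GENCODE transcripts, with PCBP1-AS1, whose log2 ratio was -2.24 on 3 counts in the tRF-3004b library.

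MRPL13, a large subunit protein with a bacterial counterpart, had 1707 counts (85.6 CPM) and 481 counts (271 CPM), a log2 ratio of 1.66 (1.51 to 1.81), the best counted of the 8 highest. MRPL28 had 337 counts (16.9 CPM) and 92 counts (51.8 CPM), a log2 ratio of 1.61 (1.27 to 1.95). MRPL51, mitochondria-specific (chromosome 12, 6491886 to 6493262), had 901 counts (45.2 CPM) and 225 counts (127 CPM), a log2 ratio of 1.49 (1.27 to 1.70). It shares 17.7% of its words with NCAPD2, which was at -0.69, and the 2 genes summed gave -0.02 (-0.16 to 0.12), so reads exchanged between them could change its value.

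At the other end, 7 members were lower in the tRF-3004b library and 6 of these had an interval that held 0. MRPL2, a core protein beside the peptidyl transferase centre (chromosome 6, 43054029 to 43059863), had 279 counts (14.0 CPM) and 18 counts (10.1 CPM), a log2 ratio of -0.46 (-1.24 to 0.22). MRPS27, a pentatricopeptide repeat protein of the small subunit (chromosome 5, 72219403 to 72320240), had 3041 counts (152 CPM) and 225 counts (127 CPM), a log2 ratio of -0.27 (-0.47 to -0.07). MRPL55, a large subunit protein, had 229 counts (11.5 CPM) and 18 counts (10.1 CPM), a log2 ratio of -0.18 (-0.96 to 0.51). Depth allowed no direction for MRPL2 and MRPL55, which had the fewest counts of all members in the tRF-3004b library.

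MRPS25, mitochondria-specific, had 1647 counts (82.6 CPM) and 131 counts (73.7 CPM), a log2 ratio of -0.16 (-0.43 to 0.09). MRPS9 had 2660 counts (133 CPM) and 219 counts (123 CPM), a log2 ratio of -0.11 (-0.32 to 0.09). Both were counted well enough that a 2-fold difference in either direction lay outside their intervals. MRPL10, which anchors the stalk that recruits translation factors, had 498 counts (24.97 CPM) and 43 counts (24.2 CPM), a log2 ratio of -0.04 (-0.53 to 0.41). MRPL30 had 2568 counts (129 CPM) and 227 counts (128 CPM), a log2 ratio of -0.01 (-0.21 to 0.19). MRPS26, the eighth lowest, had 320 counts (16.0 CPM) and 31 counts (17.5 CPM), a log2 ratio of 0.12 (-0.46 to 0.66).

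By place in the ribosome, the large subunit groups had close medians and wide ranges. Over all members 90.9% were higher and 32.5% at least 2-fold, and over all genes 44.5% and 12.3%. Stalk proteins MRPL1, MRPL11, MRPL12 and MRPL10 were at 1.72, 1.09, 0.88 and -0.04, with a median of 0.98. Of 5 core proteins of the large subunit that were listed together, MRPL14 and MRPL2 were the highest and lowest, and MRPL3, MRPL4 and MRPL16 stood at 0.87, 0.87 and 0.75. All 8 proteins of the central protuberance were higher, 3 of them at least 2-fold, with a median of 0.88, from MRPL48 at 0.44 to MRPL27 at 2.17. This group includes MRPL58, a peptidyl-tRNA hydrolase that rescues stalled ribosomes, at 0.77 (0.43 to 1.09). The 7 proteins listed for the exit tunnel were all higher, 1 of them at least 2-fold (MRPL22 at 1.13), with a median of 0.69. MRPL45, which tethers the ribosome to the inner membrane, was at 0.69 (0.46 to 0.91), and MRPL44 was the lowest of the 7 at 0.26 (-0.02 to 0.53).

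Large subunit proteins with a bacterial counterpart (30) had a median of 0.88, with 26 higher, 12 of them at least 2-fold. Mitochondria-specific large subunit proteins (21) had a median of 0.78, all 21 were higher and 7 at least 2-fold. Beside these counts, 44.5% of all genes were higher and 12.3% at least 2-fold, and 90.9% and 32.5% of all members. In the small subunit, the 17 proteins with a bacterial counterpart had a median of 0.83, with 16 higher, among them MRPS17 at 1.35 (1.13 to 1.57) and MRPS7 at 1.25 (0.98 to 1.51), both rRNA-binding proteins. The 9 mitochondria-specific small subunit proteins had the lowest median, 0.35, with MRPS22, MRPS34 and MRPS23 at 1.00, 0.93 and 0.85 and MRPS35, MRPS26, MRPS25 and MRPS27 between 0.22 and -0.27. Their summed level was 658 CPM in the control and 838 CPM under tRF-3004b, giving a log2 ratio of 0.35 (0.27 to 0.43), against 0.71 (0.65 to 0.77) for the small subunit proteins with a bacterial counterpart. The 2 intervals do not overlap, and both cover counting error only. Of the 13117 control counts of the mitochondria-specific group, MRPS27 held 3041 and MRPS35 2976. Its median length was 1829 bases, against 1414 for those with a bacterial counterpart. With the length trend removed, the group medians were 0.09 and 0.40.

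The 3 MRPS18 paralogues, which descend from 1 bacterial protein and occupy different places in the ribosome, were all higher, as were 70 of all 77 members. MRPS18A, in the large subunit, had 212 counts (10.6 CPM) and 41 counts (23.1 CPM), a log2 ratio of 1.12 (0.60 to 1.61). MRPS18B had 824 counts (41.3 CPM) and 115 counts (64.7 CPM), a log2 ratio of 0.65 (0.35 to 0.93). MRPS18C had 1021 counts (51.2 CPM) and 193 counts (109 CPM), a log2 ratio of 1.08 (0.86 to 1.31). MRPS18C shares 75.6% of its 31-base words with ABRAXAS1, its neighbour, which was at -1.14 (-1.58 to -0.75), and the sum of the 2 genes was at 0.25 (0.05 to 0.44). The ratio of MRPS18C could therefore depend on how the reads were shared out. Words were matched on either strand, and whether reads passed between the 2 genes was not tested. MRPS18A shares 55.7% of its words with RSPH9, which had only 6 and 0 counts.

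Sequence shared with other genes touched 17 members, which had at least 10% of their 31-base words in another quantified gene, on either strand. Without them the median of the other 60 members was 0.80, and 18 of these were at least 2-fold higher. MRPS24 shares 85.2% with the readthrough gene URGCP-MRPS24, and the 2 summed gave 0.58 (0.22 to 0.93) against 0.59 alone. MRPL53 shares 51.1% with CCDC142, and its own interval (-0.18 to 0.75) held 0. MRPL45 shares 20.2% with the pseudogene MRPL45P2, and the sum gave 0.63 (0.41 to 0.85). MRPS31 summed with its pseudogene MRPS31P5 moved from 0.35 (0.06 to 0.63) to 0.21 (-0.06 to 0.46), so its interval then held 0. Sums with 2 long neighbours differed more. MRPS6, at 0.94 alone, shares 15.2% with SLC5A3, which was at -0.46, and the sum was at 0.05 (-0.13 to 0.22). MRPS25, at -0.16 alone, shares 17.3% with NR2C2, which was at -0.99, and the sum was at -0.62 (-0.81 to -0.44).

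Members are short transcripts, and over all genes the log2 ratio fell with transcript length. Spearman's rho of length and log2 ratio was -0.44 across 8711 genes averaging 10 CPM or more and -0.32 across the 77 members. Genes and members each share both libraries, so neither is a set of independent points. In the shortest of 10 equal bins of genes by length (71 to 1392 bases) the median was 0.65 for all genes and 0.93 for the 42 members in it, of which 33 stood above the bin's median. In the next bin it was 0.30 for all genes and 0.65 for 17 members, and in the third 0.08 and 0.79 for 5 members. Over the 3 shortest bins, 23 of 64 members were at least 2-fold higher, against 14.1% of 2614 genes. Most of these members lay in the shortest bin, where 18 of 42 were at least 2-fold higher, against 24.7% of its genes. For the next bin this was 4 of 17 members against 10.8% of genes, and for the third 1 of 5 against 6.88%.

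**Figure D3:**
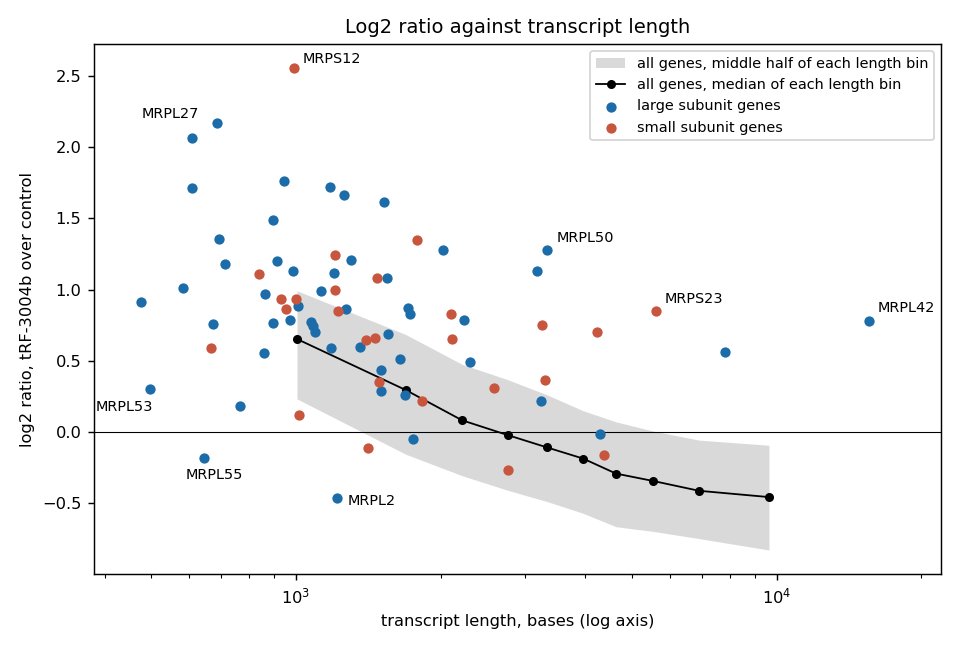
Log2 ratio, tRF-3004b over control (y axis), against transcript length in bases (x axis, log), with 1 point for each of the 77 genes. The black line joins the medians of all genes in 10 length bins (from 0.65 in the shortest to -0.46 in the longest) and the band spans the quartiles; most members lie above the line.

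When the length trend of all genes (a lowess curve) was subtracted, the members' median fell from 0.79 to 0.36. Of the 76 members averaging 10 CPM or more, 60 stayed above 0 (background 49.9% of 8711 genes). The interval lay above 0 for 46 (background 28.6%) and below 0 for 6 (background 26.8%), namely MRPL2, MRPL34, MRPL53, MRPL55, MRPS9 and MRPS27. At least 2-fold higher were 14 of 77 (18.2%) after subtraction, against 25 before (background 11.1% of 13750 genes after subtraction). MRPS12, MRPL27, MRPL54, MRPL14, MRPL1, MRPL13 and MRPL28 were among them, at 1.94, 1.36, 1.19, 1.12, 1.20, 1.19 and 1.27. The origin of the length trend was not tested.

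Examples of longer members above the trend were chosen after their values were seen. MRPL42, a mitochondria-specific large subunit protein with transcripts of about 15558 bases, had 6418 counts (322 CPM) and 982 counts (553 CPM), the most of any member, and a log2 ratio of 0.78 (0.68 to 0.88) where the longest bin had a median of -0.46. MRPS23 (5609 bases) was at 0.85, MRPL19 (7825 bases) at 0.56 (0.41 to 0.71) and MRPL50 (3336 bases) at 1.28 (1.09 to 1.47). With the trend removed these 4 were at 1.24, 1.20, 1.00 and 1.40. MRPL22 (3169 bases) was at 1.22 with the trend removed. For short genes the trend is above 0, so its removal lowers them all: among the shortest members, MRPL55 (643 bases) was then at -1.02, MRPL53 (496 bases) at -0.67 and MRPL34 (764 bases) at -0.57, and MRPL54 (608 bases) and MRPL36 (609 bases) at 1.19 and 0.85.

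Cytosolic ribosomal protein genes, of similar kind and even shorter, gave the comparison for length. Of 79, 72 were higher (44.5% of all genes) and 6 (7.59%) at least 2-fold (12.3% of all genes), and their median was 0.57 (median length 845 bases, against 1260 for the members). With the length trend removed, the median of the cytosolic genes was -0.12 and that of the mitochondrial genes 0.36. No test of the difference between the lists was made, since genes are not replicates and there was 1 library per group.

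**Figure D4:**
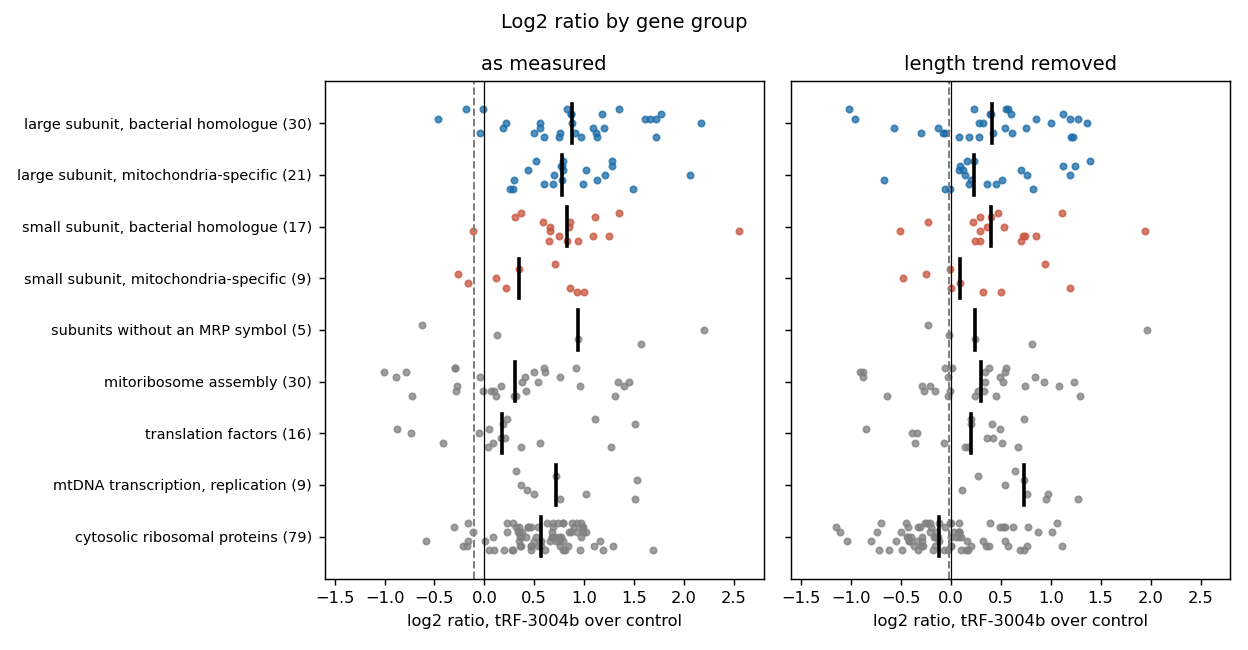
Log2 ratio, tRF-3004b over control (x axis), for each gene of 9 groups (y axis, number of genes in brackets), as measured on the left and with the length trend of all genes removed on the right. Each point is a gene, the thick bar is the group's median and the dashed line the median of all genes; with the trend removed the cytosolic ribosomal proteins centre at -0.12 and the large subunit genes with a bacterial counterpart at 0.41.

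Of the 11 members with the mimetic's heptamer in the 3′ UTR, 10 were higher, with a median of 0.66, and of the 65 searched without it, 59 were higher, with a median of 0.83. Members with a site had longer transcripts, with a median of 3242 bases against 1204, and with the length trend removed the medians were 0.32 and 0.36. MRPS16, with 3 sites, had 2224 counts (112 CPM) and 245 counts (138 CPM), a log2 ratio of 0.31 (0.11 to 0.50). MRPL50, with 1 site, was the highest at 1.28, and MRPS25, with 1 site, the lowest at -0.16. Over all genes, 627 of 1813 with a site were higher, with a median of -0.26. Of those without one, 4755 of 10402 were higher, with a median of -0.08. With the length trend removed, the 2 medians were 0.01 and -0.01. All 5 members with the heptamer in the coding sequence (MRPL1, MRPL3, MRPL11, MRPL19 and MRPL46) were higher, as were 70 of all 77 members and 44.5% of all genes.

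The 20 members with YY1 letters in the promoter had a median log2 ratio of 1.05, and the 49 without them had 0.77. With the length trend removed these were 0.56 and 0.29. The 11 members with ETS letters had a median of 0.99, against 0.78 for 58 without, and with the length trend removed these were 0.45 and 0.32. The 8 with NRF1 letters had 0.69, against 0.85 for 61, and the order turned with the length trend removed (0.56 and 0.32). Ranges overlapped for each motif: among members with YY1 letters were MRPL36, at 1.72, and MRPS27, at -0.27. A match in this window says nothing of the factor's binding in these cells.

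Several members also differed in which of their transcripts held the counts. Of 22 members with enough counts and at least 2 transcripts above 10%, the exact 95% binomial interval of a transcript's share did not overlap between libraries for 18. By the same rule 86.1% of 2824 genes differed, so 18 of 22 is no trait of the members. These intervals cover counting error and not the uncertainty of assigning reads to transcripts that share sequence. The transcript that gained most was shorter by more than 50 bases than the one that lost most in 6 members, longer in 4 and within 50 bases in 8. In MRPL42, MRPL52 and MRPS11 the 2 transcripts differ in length by 3 bases, and whether reads could tell them apart was not tested.

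The widest difference in length was in MRPL35, a large subunit protein. Its 737-base transcript held 4.53% (3.55 to 5.69) of 1545 counts in the control library and 25.6% (19.1 to 33.1) of 160 in the tRF-3004b library, while the 3723-base transcript, whose 3′ UTR carries the sites shown, went from 93.9% to 74.4%. The gene's counts (77.5 and 90.1 CPM) gave a log2 ratio of 0.22 (-0.03 to 0.45), whereas its TPM, which weighs short transcripts more, went from 60.0 to 99.5. In MRPL30, a 3038-base non-coding transcript held 1.13% (0.76 to 1.62) and 18.5% (13.7 to 24.2), with the gene's total level even, as given above. In MRPL9, with 1674 counts (83.9 CPM) and 225 counts (127 CPM) and a log2 ratio of 0.59 (0.39 to 0.80), a 1122-base transcript held 21.8% and 51.6%. In MRPL11, with 735 counts (36.9 CPM) and 139 counts (78.2 CPM), a 1455-base non-coding transcript held 8.03% and 23.7%. In MRPL37, the 1487-base transcript held 83.0% and 93.1%. In MRPS18C, a 1017-base transcript held 4.80% and 15.03%.

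A longer transcript gained in 4 members of both subunits. In MRPL40, with 891 counts (44.7 CPM) and 129 counts (72.6 CPM) and a log2 ratio of 0.70 (0.42 to 0.97), a 1408-base transcript held 9.20% (7.39 to 11.3) and 33.3% (25.3 to 42.2). In MRPL43, with 573 counts (28.7 CPM) and 88 counts (49.5 CPM) and a log2 ratio of 0.78 (0.45 to 1.11), a 999-base transcript held 28.3% and 55.7%. In MRPL47, with 1005 counts (50.4 CPM) and 207 counts (117 CPM) and a log2 ratio of 1.21 (0.99 to 1.43), the 1354-base transcript held 69.9% and 86.5%. In MRPS33, with 944 counts (47.3 CPM) and 137 counts (77.1 CPM) and a log2 ratio of 0.70 (0.43 to 0.96), a 4297-base transcript held 15.3% and 24.8%.

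**Figure D5:**
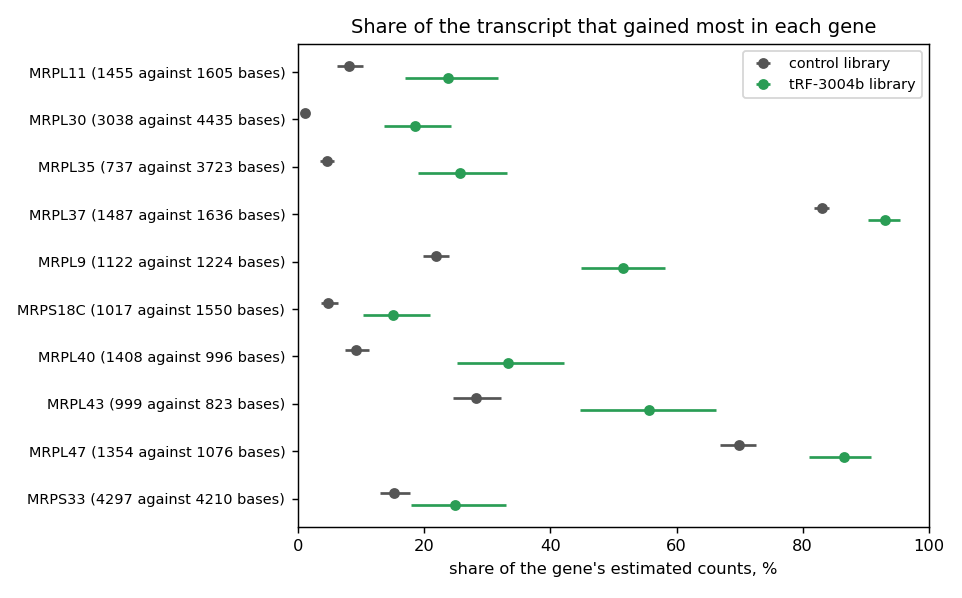
Share of a gene's estimated counts in percent (x axis) held by the transcript that gained most in the tRF-3004b library, for the 10 genes (y axis) in which it differs from the transcript that lost most by more than 50 bases, with both lengths given. Points are the 2 libraries (green for tRF-3004b, dark for control) and bars are exact 95% binomial intervals. The green points lie to the right because each transcript was chosen for its gain.

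Among the 8 members whose 2 transcripts were of nearly equal length, the gene totals ran from -0.27 (MRPS27) to 1.77 (MRPL14). MRPS22, a mitochondria-specific protein of the small subunit, had 1616 counts (81.0 CPM) and 288 counts (162 CPM), a log2 ratio of 1.00 (0.81 to 1.18), and of its 2 transcripts of 1205 bases, 1 held 44.2% and 71.5% and the other 37.1% and 28.5%. MRPS27, the 1 member with an interval below 0, had 70.7% and 94.7% on its 2770-base transcript. MRPL24, of the exit tunnel, had 732 counts (36.7 CPM) and 96 counts (54.0 CPM), a log2 ratio of 0.56 (0.24 to 0.87), and its 842-base transcript held 37.3% and 69.8%. MRPL52 had 344 counts (17.3 CPM) and 61 counts (34.3 CPM), a log2 ratio of 0.99 (0.58 to 1.39), and MRPS11 had 387 counts (19.4 CPM) and 58 counts (32.7 CPM), a log2 ratio of 0.75 (0.33 to 1.15). In MRPL14 a 904-base transcript had 0 and 16.4% of few counts, and in MRPL18 an 892-base non-coding transcript held 56.6% and 65.9%, so most of the counts of this gene were not on its coding transcripts.

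The 5 subunits of the mitochondrial ribosome that carry no MRP symbol had ratios on both sides of 0, with a median of 0.94. With the length trend removed their median was 0.24. Their summed counts gave a log2 ratio of 0.04 as measured, with an interval that held 0 (-0.08 to 0.16). GADD45GIP1, a large subunit protein also known as CRIF1, had 187 counts (9.38 CPM) and 77 counts (43.3 CPM), a log2 ratio of 2.20 (1.81 to 2.60). AURKAIP1 was at 1.57 (0.99 to 2.13) and CHCHD1 at 0.94 (0.53 to 1.34). DAP3, a GTP-binding protein of the small subunit, was at 0.12 (-0.06 to 0.30). PTCD3, a pentatricopeptide repeat protein of the small subunit like MRPS27, had 3694 counts (185 CPM) and 213 counts (120 CPM), a log2 ratio of -0.63 (-0.83 to -0.43).

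Factors that assemble the ribosome lay on both sides of 0. Of 30 assembly genes, 20 were higher and 10 lower, with 11 intervals above 0 and 4 below, where all genes gave 44.5% higher, 23.3% above and 28.6% below. Their median was 0.31 as measured and 0.30 with the length trend removed, against 0.79 and 0.36 for the members. The highest were the rRNA methyltransferase MRM1 at 1.45 (-0.28 to 2.95, on 20 and 5 counts), MPV17L2 at 1.40 (0.26 to 2.44, on 42 and 10 counts) and NDUFAB1, the mitochondrial acyl carrier protein, at 1.34 (1.15 to 1.53). The lowest were the rRNA methyltransferases TRMT2B at -1.003 (-1.63 to -0.44) and TFB1M at -0.89 (-1.36 to -0.46), and the GTPase NOA1 at -0.79 (-1.10 to -0.49). MALSU1, the partner of MRPL14, was at 0.49 (0.31 to 0.67).

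Of 16 translation factors and their partners, 12 were higher and 4 lower, with 5 intervals above 0 and 3 below (23.3% and 28.6% of all genes). Their median was 0.18, and 0.20 with the length trend removed. SLIRP, which binds mitochondrial mRNA, was at 1.51 (1.38 to 1.64), and its partner LRPPRC at -0.73 (-0.83 to -0.64), with 18398 counts (923 CPM) and 985 counts (554 CPM). The initiation factor MTIF3 was at 1.27 (1.04 to 1.50) and the translational activator TACO1 at 1.11 (0.70 to 1.51). OXA1L, the insertase that takes up the nascent chains, was at -0.87 (-1.21 to -0.55) and the ribosome recycling factor GFM2 at -0.42 (-0.64 to -0.20). SLIRP transcripts are short (377 bases) and LRPPRC transcripts long (6603 bases), and with the length trend removed they were at 0.41 and -0.34.

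All 9 genes for transcription and replication of mitochondrial DNA were higher, 7 with an interval above 0 (44.5% and 23.3% of all genes). Their median was 0.72 as measured and 0.73 with the length trend removed. SSBP1, the single-strand DNA binding protein, was at 1.53 (1.42 to 1.63), the transcription factor TFB2M at 1.51 (1.17 to 1.84) and the helicase TWNK at 1.01 (0.61 to 1.40). The lowest were TFAM, which packages mitochondrial DNA, at 0.32 (0.22 to 0.42), the RNA polymerase POLRMT at 0.36 (-0.29 to 0.96) and POLG2 at 0.42 (-0.05 to 0.87). TWNK shares sequence with MRPL43 (11.3% of MRPL43 words), and the sum of both was at 0.88 (0.62 to 1.13).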

How the data were processed

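Poly-A RNA libraries of HEK293T cells were compared, 1 per group. Per the labels' protocols, poly-A RNA was made into libraries with a directional kit. Quantification used kallisto 0.46.1 with GRCh38, per the submitters' processing notes. For the annotation release and strand setting, the sources used here give nothing. The authors deposited estimated counts for 70866 RefSeq transcripts, not normalized, and TPM values scaled over effective length, which keep no depth. Transcript length and effective length in bases are per the file headers, and the effective length implied fragments of 137 and 139 bases.

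Gene counts are rounded sums of these estimated counts. RefSeq (GRCh38.p14) named 70245 transcripts and GENCODE release 29 named 293. The 328 unnamed transcripts, with 0.0723% of control and 0.0713% of tRF-3004b counts, were left out. Scaling used TMM (edgeR 4.0.16, R 4.3.3), with factors of 1.02 and 0.983. No edgeR test was run, because without replicates there is no spread between samples. The log2 ratio has 0.5 counts added at a common library size, and the 95% interval (exact conditional Clopper-Pearson) has none. Intervals cover counting error only, since reads carry no molecular identifiers and need not be independent molecules. The length trend is a lowess curve (span 0.3, statsmodels 0.14.6, Python 3.11.15) over genes averaging 10 CPM or more, and length is weighted by counts over a gene's transcripts. Interval coverage was tested on simulated counts that held counting error only (Poisson). That simulation left out the uncertainty of assigning reads to transcripts, so it says nothing of it.

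The members, gene lists and alternatives were chosen with earlier results of these data known. Full values were given to the 8 highest and 8 lowest members averaging 10 CPM or more, the 5 with the highest control TPM, the MRPS18 paralogues, members with an isoform difference, and of each other list the 3 highest and 3 lowest. MRPS12, of mean CPM under 10, and other examples were added after their values were seen. As alternatives served scaling by total counts or by size factors of DESeq2 1.42.0, filters of 5 CPM or of 1 count, TPM with 1 added, 5 added counts, coding transcripts only, sums with pseudogenes and readthroughs, and removal of the length trend. Removal of the length and GC trend and omission of members sharing words were added after seeing the data.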

Additional observations from a re-analysis of the deposited data

How the results depend on the processing

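Under 5 counts added, filters of 5 CPM or of 1 count, sums with pseudogenes and readthroughs, and omission of members sharing words, every list result that could be computed kept its direction and stayed near the reported value. The summed log2 ratio of the members was 0.70 with total counts, 0.78 with DESeq2 size factors and 0.78 with coding transcripts only, where 2 members had an interval below 0. With gene TPM and 1 added, which shifts the median of all genes from -0.11 to -0.38, 11 members were at least 2-fold higher, and medians were 0.48 for all members, 0.53 for MRPL, 0.37 for MRPS, -0.030 for assembly, -0.13 for translation factors and 0.23 for cytosolic ribosomal proteins. The members' median minus that of all genes was 0.87 there, against 0.90 as reported. Of the members and other mitochondrial list genes whose reported interval excluded 0, MRPL37 (-0.037), MRPS16 (-0.033), MRPS35 (-0.12), MTIF2 (-0.11) and TFAM (-0.025) turned sign in TPM. Genes whose reported interval held 0, such as MRPS26 (40.5 and 34.8 TPM), could also turn and are not listed. In TPM, 4.95% of all genes reached 2-fold higher and 17.7% reached 2-fold lower (12.3% and 14.3% as reported).

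With the length trend removed, 14 members were at least 2-fold higher (against 11.1% of 13750 genes) and 1 lower (against 12.5%). The interval lay below 0 for 6 members (against 26.8% of 8711 genes). Medians were 0.36 for all members, 0.39 for MRPL, 0.34 for MRPS and -0.12 for cytosolic ribosomal proteins. MRPL23 (-0.059), MRPL24 (-0.13), MRPL30 (0.24), MRPL33 (-0.080), MRPL34 (-0.57), MRPL37 (-0.063), MRPL53 (-0.67), MRPS24 (-0.23), MRPS31 (-0.0087), MRPS35 (-0.00074) and MIEF1 (0.33) turned sign, each with an interval that excluded 0 before or after removal. Genes that turned with an interval that held 0 both times, such as MRPS26 (0.12 before and -0.48 after), are not listed. With the GC trend removed as well, these counts were 13 (against 10.3% of 13251 genes), 1 (against 12.2%) and 6. The medians were then 0.42, 0.42, 0.39 and -0.056. By the same rule, MRPL23 (-0.18), MRPL24 (-0.13), MRPL30 (0.31), MRPL33 (-0.039), MRPL34 (-0.57), MRPL37 (-0.075), MRPL41 (-0.052), MRPL53 (-0.63), MRPS24 (-0.27), MRPS26 (-0.58), MRPS31 (-0.063), MRPS35 (-0.0010) and MIEF1 (0.37) turned sign. Sums have no value with a trend removed, and TPM has no interval and no summed count. The cause of these changes was not tested. No paired analysis was possible because each group held 1 library. The depth of the tRF-3004b library limits members such as MRPL2 and MRPL55, with 18 counts each.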

Other observations

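KGD4 and LACTB, for which the gene table lists MRPS36 and MRPL56 as older symbols, fall outside the choice of members. KGD4, a subunit of the oxoglutarate dehydrogenase complex, had 691 counts (34.7 CPM) in the control library and 105 counts (59.1 CPM) under tRF-3004b, giving a log2 ratio of 0.77 (0.46 to 1.07). LACTB, a serine protease-like protein of the intermembrane space, had 588 counts (29.5 CPM) and 57 counts (32.1 CPM), a log2 ratio of 0.12 (-0.30 to 0.52). The antisense gene MRPL20-AS1 had 89 and 6 counts, against 1051 and 212 for MRPL20, whose log2 ratio was 1.18 (0.96 to 1.39). Whether counting used the strand is not given in the sources used here, so reads of an overlapping antisense gene cannot be told apart from those of its partner.

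The 2 rRNAs of the mitochondrial ribosome carry short poly-A tails and were counted in these poly-A libraries. MT-RNR1, the rRNA of the small subunit, had 17975 counts (901 CPM) and 3051 counts (1718 CPM), a log2 ratio of 0.93, and MT-RNR2, the rRNA of the large subunit, had 184370 counts (9245 CPM) and 13331 counts (7505 CPM), a log2 ratio of -0.30. Their ratios differed in sign, and how far poly-A selection set their levels was not tested.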
